A study of Homo sapiens with 30 samples.

Results

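The integrated stress response and amino acid supply genes described here are 48 named genes, taken from the count table by gene symbol: 8 transcription factors and feedback regulators of the response, 5 stress effectors and secreted factors, 9 enzymes of amino acid and one-carbon metabolism, 7 amino acid transporters, 18 cytosolic aminoacyl-tRNA synthetases and XPOT, the exporter of tRNA from the nucleus. All 48 symbols were found once among 57373 genes, and all 48 passed the filter on low counts that left 18485 genes to test. RNA came from U2OS, a human osteosarcoma cell line. The series asks how FOXP2, a forkhead transcription factor, and its helix-deleted mutant change gene expression when WNT signalling is or is not activated. The 6 groups had 5 libraries each, which the labels call biological replicates. The mock group was labelled as mock-transfected control cells without CHIR. CHIR cells received 5 µM CHIR99021, an inhibitor of the kinase GSK3 that stabilises beta-catenin, and no FOXP2 plasmid is named for them. WT FOXP2 cells were transfected with 500 ng of a plasmid for wild-type FOXP2 for 48 h. In dhelix FOXP2 cells the same amount of plasmid carried FOXP2 without residues 264 to 272. The WT FOXP2 + CHIR and dhelix FOXP2 + CHIR groups had the respective plasmid (500 ng, 48 h) and 5 µM CHIR99021. In each group with CHIR, the CHIR group included, CHIR99021 is recorded in the medium from 72 h before transfection. All groups are 1 cell line and the overexpression is transient. Whether mock and CHIR cells received an empty plasmid is not given in the sources used here, so FOXP2 and plasmid DNA cannot be told apart in a comparison with mock or CHIR.

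ATF4 is the transcription factor at the centre of the integrated stress response. Kinases that sense amino acid shortage, unfolded proteins, viral RNA or heme shortage phosphorylate the initiation factor eIF2, general translation slows, and the ATF4 mRNA is then translated more. ATF4 pairs with C/EBP-family partners at composite C/EBP-ATF response elements and raises transcription of genes that make, import and load amino acids, and of feedback genes such as TRIB3 and PPP1R15A. ATF4 activity is set mainly by translation, so an mRNA level is not a measure of it.

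The core of that element, TGATGNAA, was searched on both strands of RefSeq promoter windows (GRCh38.p14, 250 bases before to 50 after a gene's start). Of the 48 genes 39 were matched in this table, and 13 of the 39 (33.3%) held the core in any of their windows. The same was true of 4.46% of all 27305 genes in the table and of 3.62% of all 35116 windows. By role, the core stood in 7 of 14 matched synthetases, 3 of 6 transporters, 1 of 6 enzymes, 1 of 5 effectors, 1 of 7 regulators and not in XPOT. With the longer core TGATGNAAT, each match of which contains the shorter one, 2 of 39 (5.1%) remained, GARS and TARS, against 1.22% of all genes. The 7 stretches that lie wholly before the gene's start are shown because the element was not read from these counts, although described ATF4 targets may have been recognised by it: the core is in capitals, as it reads on the gene's strand 5′ to 3′, and an element on the opposite strand appears as its reverse complement.
ASNS (chr7:97872449-97872496, minus strand): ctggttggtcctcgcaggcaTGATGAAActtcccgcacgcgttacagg
CEBPG (chr19:33374051-33374098, plus strand): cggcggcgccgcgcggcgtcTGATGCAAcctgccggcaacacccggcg
CHAC1 (chr15:40953242-40953289, plus strand): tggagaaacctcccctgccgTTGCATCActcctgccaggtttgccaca
SLC1A5 (chr19:46784884-46784931, minus strand): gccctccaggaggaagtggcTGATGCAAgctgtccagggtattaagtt
AARS (chr16:70289666-70289713, minus strand): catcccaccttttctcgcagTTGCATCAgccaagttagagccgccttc
GARS (chr7:30594825-30594872, plus strand): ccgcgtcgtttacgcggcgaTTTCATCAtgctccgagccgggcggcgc
IARS (chr9:92293698-92293730, minus strand): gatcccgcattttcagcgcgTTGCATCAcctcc

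The core ends 60 bases before the start in ASNS, 34 in CEBPG, 201 in CHAC1, 89 in SLC1A5, 179 in AARS, 25 in GARS and 5 in IARS. In CARS, MARS, NARS, SLC3A2, SLC7A1 and TARS the core reached or followed the start and is not printed. NUPR1, PSPH, SHMT2, ALDH1L2, SLC7A11, YARS, LARS, VARS and DARS were not matched. A match of letters is not evidence of binding, and the deposited counts hold no binding data.

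Total counts were 15755842 to 29466652 per library. FOXP2 averaged 0.898 CPM (each library's counts scaled to the same TMM-adjusted total) in mock, 0.504 with CHIR, 7076 with WT FOXP2 and 5319 with dhelix FOXP2, and rose to 15300 and 13480 in the 2 groups that also had CHIR, so the FOXP2 mRNA level was not equal between groups. CHIR replicate 1 stood apart from its group, with a mean distance from the other 4 of 28.5 (chi-square averaged over genes). Pairs among those 4 had distances of 1.78 to 4.14. dhelix FOXP2 replicate 5 and WT FOXP2 + CHIR replicate 4 stood apart less, at 10.9 and 5.98. Of 8 osteoblast lineage markers, RUNX2, COL1A1 and SPARC were present, while SP7, BGLAP and IBSP were at or near 0 CPM. Of 6 epithelial markers KRT8 and KRT18 were present and CDH1, which defines epithelial cells, averaged 0.377 CPM in mock, although the labels call the cells epithelial. The summed CPM per library ran from 3282 to 3443 in mock to 742 to 789.5 with WT FOXP2 + CHIR for the osteoblast list. For the epithelial list it was 383 to 427 in mock, 333 to 411 with CHIR and 642 to 689 with dhelix FOXP2. Neither list moved one way: with WT FOXP2, of 5 osteoblast markers tested RUNX2, COL1A1 and SPARC fell and ALPL and SPP1 rose (-2.89 to 2.68 log2), and of 6 epithelial markers CDH1, KRT18 and ESRP1 rose and EPCAM, KRT8 and KRT14 fell (-6.63 to 2.39 log2). With CHIR the counts at an adjusted p under 0.05 (edgeR) were 1 higher and 4 lower for the osteoblast list and 1 higher and 1 lower for the epithelial list. Of all genes tested, 38.8% were higher and 35.3% lower with CHIR, and 39.9% and 41.6% with WT FOXP2, so such counts are not particular to these markers. The 5 blood cell markers summed to 0.735 to 1.43 CPM per library in mock and 18.02 to 20.2 CPM with WT FOXP2 + CHIR, of which ITGAM averaged 16.5 CPM, with HBB at 0 in all 30 libraries and the leukocyte marker PTPRC at 0.374 CPM. The rest of that sum is CD3D, a T-cell marker that passed the filter on low counts, and CD79A, which did not pass it. The part of these shifts in the results was not tested.

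Most members stood higher in CHIR, WT FOXP2 and dhelix FOXP2 cells than in mock cells. CHIR raised 41 of 48 and lowered 5, with a median log2 fold change of 0.81. Among all genes tested 38.8% were called higher and 35.3% lower with CHIR, where called means an adjusted p under 0.05 (edgeR's quasi-likelihood test, Benjamini-Hochberg over 18485 genes), and the median over all genes was 0.023. WT FOXP2 raised 41 and lowered 5, with a median of 1.02, beside 39.9% of all genes higher and 41.6% lower and an all-gene median of -0.021. With dhelix FOXP2 42 rose and 6 fell, with a median of 0.85, beside 39.6% and 40.9% of all genes and an all-gene median of -0.015. The counts by role given below for comparisons with mock are to be read beside these same all-gene shares. In bulk RNA more cells of one state and more RNA per cell cannot be told apart. These 3 comparisons share the 5 mock libraries. Without CHIR replicate 1 the count for CHIR was 41 higher and 5 lower. By the order of group means, mock was lowest for 39 members and WT FOXP2 + CHIR highest for 26, CHIR for 9, WT FOXP2 for 8, mock for 3 and dhelix FOXP2 + CHIR for 2.

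**Figure D1:**
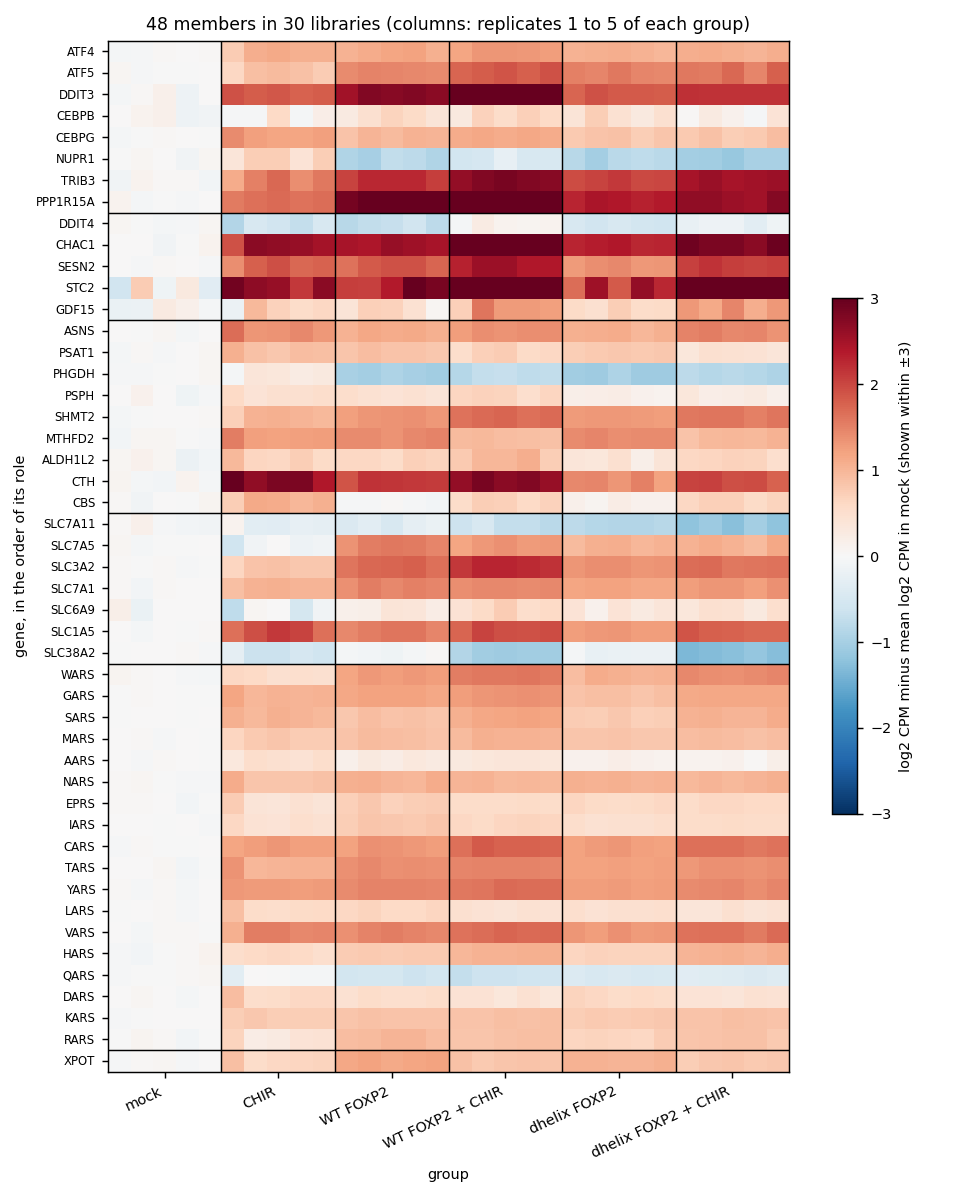
Log2 CPM of each of the 48 members (rows, in the order of their roles) in each of the 30 libraries (columns, in 6 groups of 5 replicates), minus the gene's mean in the mock libraries. Red is above and blue below the mock mean, and the darkest colours also stand for values beyond the ends of the scale. Most rows are red in all 5 groups other than mock, while PHGDH, NUPR1, SLC7A11 and QARS are blue in the 4 groups with FOXP2.

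Of the 8 regulators 7 rose with CHIR, 7 rose and 1 fell with WT FOXP2, and 7 rose and 1 fell with dhelix FOXP2, with medians of 1.14, 1.29 and 1.27 log2. ATF4 mRNA measured 289.7, 295, 309, 301 and 307 CPM in the 5 mock libraries and 512, 641, 664, 626 and 629 CPM in the CHIR libraries. It measured 622, 653, 681, 695 and 630.5 CPM with WT FOXP2 and 622, 630.4, 636, 616 and 599 CPM with dhelix FOXP2. Where CHIR was added, it stood at 677, 754, 757, 744 and 715 CPM with WT FOXP2 and at 641, 654, 631, 605 and 638 CPM with dhelix FOXP2. Every mock library lay below every other library, WT FOXP2 + CHIR was highest but overlapped WT FOXP2, and CHIR replicate 1 was the lowest of the 25 libraries outside mock. ATF4 rose by 1.03 ± 0.045 log2 (SE, n = 5 libraries per group) with CHIR, by 1.13 ± 0.045 with WT FOXP2 and by 1.05 ± 0.045 with dhelix FOXP2, each with an adjusted p of at most 1.56e-21.

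DDIT3, which encodes the stress factor CHOP, measured 14.9, 16.1, 17.2, 14.0 and 15.8 CPM in mock and 58.9, 54.4, 56.3, 52.9 and 55.1 CPM with CHIR. Its level was 89.9, 106, 103, 107 and 101 CPM with WT FOXP2 and 130.3, 135, 145, 139 and 128 CPM with WT FOXP2 + CHIR. The corresponding dhelix FOXP2 libraries had 52.5, 58.1, 55.5, 55.4 and 55.0 CPM without CHIR and 70.6, 69.4, 69.4, 69.6 and 69.7 CPM with it. CHIR and dhelix FOXP2 overlapped, and all other pairs of groups were separate, with WT FOXP2 + CHIR highest. DDIT3 rose by 1.82 ± 0.053 log2 with CHIR, 2.70 ± 0.052 with WT FOXP2 and 1.82 ± 0.052 with dhelix FOXP2 (adjusted p of at most 3.9e-27). In GENCODE, DDIT3 shares 27.2% of its exon bases with MARS on the other strand, and the strand setting of the counting is not given in the sources used here.

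PPP1R15A, whose product GADD34 directs the phosphatase that reverses eIF2 phosphorylation, measured 30.5, 27.3, 28.3, 27.6 and 28.8 CPM in mock and 84.5, 89.6, 92.7, 88.1 and 90.9 CPM with CHIR. WT FOXP2 libraries had 209, 257, 237, 262 and 238 CPM, and WT FOXP2 + CHIR libraries 279, 320.0, 311, 311 and 291 CPM. dhelix FOXP2 libraries had 139, 156, 149.8, 140.2 and 149 CPM, and dhelix FOXP2 + CHIR libraries 179, 180.5, 168, 164 and 193 CPM. No 2 of the 6 groups overlapped, in the ascending order mock, CHIR, dhelix FOXP2, dhelix FOXP2 + CHIR, WT FOXP2 and WT FOXP2 + CHIR. Its rise with WT FOXP2, 3.08 ± 0.056 log2 or 8.44-fold, was the largest of the 48 members in any comparison with mock, beside 1.64 ± 0.056 with CHIR and 2.36 ± 0.055 with dhelix FOXP2 (adjusted p of at most 5.98e-25).

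TRIB3, a pseudokinase that binds and restrains ATF4, measured 15.8, 18.3, 17.3, 17.4 and 16.1 CPM in mock and 37.0, 48.3, 55.6, 44.7 and 50.8 CPM with CHIR. It stood at 69.1, 81.3, 80.9, 81.3 and 71.8 CPM with WT FOXP2 and 65.7, 69.03, 73.6, 67.4 and 67.5 CPM with dhelix FOXP2. With CHIR as well, it stood at 105, 117, 121, 117 and 112 CPM for WT FOXP2 and 93.8, 103, 94.3, 96.6 and 101 CPM for dhelix FOXP2. The groups without CHIR overlapped between WT FOXP2 and dhelix FOXP2, while those with CHIR did not, and every FOXP2 library lay above every CHIR and mock library. Log2 changes against mock were 1.48 ± 0.075 with CHIR, 2.18 ± 0.073 with WT FOXP2 and 2.01 ± 0.072 with dhelix FOXP2 (adjusted p of at most 2.12e-19).

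CEBPB, a C/EBP partner of ATF4, overlapped between several groups. It measured 36.0, 38.0, 39.7, 31.7 and 32.8 CPM in mock, 34.7, 34.8, 53.6, 33.9 and 41.1 CPM with CHIR and 42.6, 49.3, 56.2, 52.7 and 46.2 CPM with WT FOXP2. The other 3 groups had 43.5, 57.3, 52.1, 58.0 and 53.8 CPM (WT FOXP2 + CHIR), 46.1, 59.1, 48.6, 43.3 and 49.5 CPM (dhelix FOXP2) and 36.2, 43.0, 38.5, 34.6 and 46.9 CPM (dhelix FOXP2 + CHIR). All WT FOXP2, WT FOXP2 + CHIR and dhelix FOXP2 libraries lay above mock, whereas CHIR and dhelix FOXP2 + CHIR overlapped it. The log2 difference from mock was 0.15 ± 0.11 with CHIR (adjusted p = 0.228, or -0.021 and 0.865 without CHIR replicate 3), and CEBPB rose by 0.46 ± 0.11 with WT FOXP2 (adjusted p = 0.000342) and by 0.46 ± 0.11 with dhelix FOXP2 (adjusted p = 0.000297). CEBPG, the partner with which ATF4 is often found, rose by 1.25 ± 0.044 with CHIR, 0.98 ± 0.044 with WT FOXP2 and 0.82 ± 0.044 with dhelix FOXP2.

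ATF5, a close relative of ATF4, measured 25.6, 24.0, 24.2, 24.2 and 24.9 CPM in mock, 37.8, 46.0, 47.2, 44.9 and 41.7 CPM with CHIR and 65.9, 68.6, 68.0, 66.9 and 65.2 CPM with WT FOXP2. Its other groups had 70.5, 67.9, 73.7, 68.2 and 66.5 CPM (dhelix FOXP2), 82.4, 87.0, 91.2, 84.9 and 91.6 CPM (WT FOXP2 + CHIR) and 73.0, 72.3, 80.8, 68.3 and 85.1 CPM (dhelix FOXP2 + CHIR). CHIR libraries lay above mock and below all libraries with FOXP2, and ATF5 rose by 0.82 ± 0.057, 1.45 ± 0.055 and 1.499 ± 0.055 log2 with CHIR, WT FOXP2 and dhelix FOXP2 (adjusted p of at most 1.32e-15). ATF5 shares 21.2% of its exon bases with NUP62 on the other strand.

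NUPR1, a small stress-induced chromatin protein, went up with CHIR and down with FOXP2. It measured 22.3, 23.5, 22.6, 20.9 and 23.5 CPM in mock and 29.1, 37.4, 37.6, 30.1 and 37.8 CPM with CHIR. WT FOXP2 libraries had 12.1, 11.4, 13.5, 13.2 and 11.99 CPM and dhelix FOXP2 libraries 12.7, 11.1, 12.9, 13.3 and 12.8 CPM. With CHIR added, they had 15.5, 15.8, 19.1, 16.3 and 16.0 and 11.1, 10.9, 10.2, 11.4 and 11.5 CPM. All 20 FOXP2 libraries lay below all mock libraries, and all CHIR libraries above them. The log2 changes against mock were 0.61 ± 0.067 with CHIR, -0.86 ± 0.074 with WT FOXP2 and -0.84 ± 0.071 with dhelix FOXP2 (adjusted p of at most 3.05e-10).

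**Figure D2:**
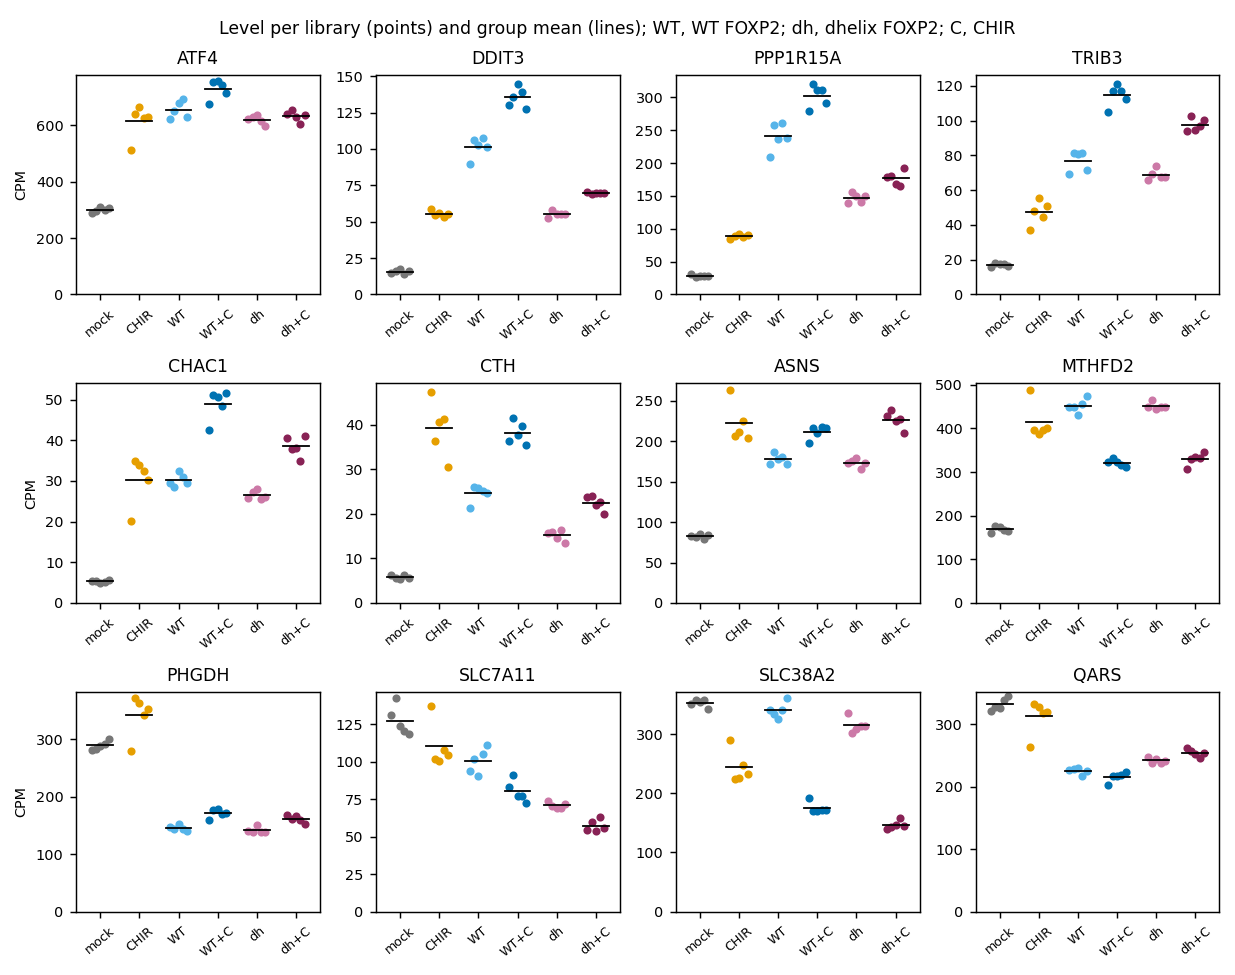
CPM in each library (points) and group mean (line) for 12 members, with a linear axis from 0 for each gene; WT is WT FOXP2, dh dhelix FOXP2, and C the addition of CHIR. DDIT3, PPP1R15A and TRIB3 are highest with WT FOXP2 + CHIR, and MTHFD2 is lower in both FOXP2 + CHIR groups than with CHIR or FOXP2 alone. For PHGDH, SLC7A11 and QARS all points of the 4 groups with FOXP2 lie below all mock points.

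Among the 5 effectors and secreted factors 4 rose and 1, DDIT4, fell in each of the 3 comparisons with mock, with medians of 1.73 log2 for CHIR, 1.81 for WT FOXP2 and 1.35 for dhelix FOXP2. CHAC1, an enzyme that degrades glutathione, measured 5.40, 5.34, 4.98, 5.24 and 5.71 CPM in mock and 20.1, 34.9, 33.8, 32.5 and 30.3 CPM with CHIR. It stood at 29.4, 28.5, 32.4, 30.9 and 29.4 CPM with WT FOXP2 and 25.8, 27.2, 27.9, 25.6 and 26.1 CPM with dhelix FOXP2. Where FOXP2 met CHIR, it stood at 42.6, 51.1, 50.6, 48.5 and 51.7 CPM for WT FOXP2 and 40.5, 37.9, 38.0, 34.9 and 41.1 CPM for dhelix FOXP2. WT FOXP2 + CHIR lay above every other group, and CHIR replicate 1 was the lowest library outside mock. CHAC1 rose by 2.51 ± 0.10 log2 with CHIR, 2.50 ± 0.10 with WT FOXP2 and 2.32 ± 0.10 with dhelix FOXP2 (adjusted p of at most 4.88e-21), which is 5.70-fold, 5.67-fold and 5.00-fold.

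SESN2, an inhibitor of mTORC1 that senses leucine, measured 26.7, 25.7, 26.9, 26.6 and 26.0 CPM in mock and 69.3, 92.2, 100.2, 86.7 and 89.3 CPM with CHIR. WT FOXP2 gave 81.0, 94.3, 98.8, 99.6 and 88.5 CPM, and WT FOXP2 + CHIR 131, 155, 156, 138 and 139.8 CPM. dhelix FOXP2 gave 63.9, 68.9, 71.4, 65.2 and 66.5 CPM, and dhelix FOXP2 + CHIR 109.8, 119, 111, 107 and 111 CPM. The CHIR libraries overlapped both groups with FOXP2 alone, dhelix FOXP2 lay below WT FOXP2 with and without CHIR, and both FOXP2 + CHIR groups lay above the rest. Rises against mock were 1.73 ± 0.070, 1.81 ± 0.070 and 1.35 ± 0.070 log2 with CHIR, WT FOXP2 and dhelix FOXP2 (adjusted p of at most 3.35e-19).

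DDIT4, another inhibitor of mTORC1, ran the other way. It measured 60.0, 57.0, 55.5, 56.6 and 59.9 CPM in mock, 31.6, 41.2, 38.9, 35.4 and 41.7 CPM with CHIR and 32.7, 34.6, 36.0, 39.1 and 33.5 CPM with WT FOXP2. It measured 41.4, 38.6, 41.1, 39.7 and 38.4 CPM with dhelix FOXP2, 55.5, 68.4, 62.4, 61.0 and 62.3 CPM with WT FOXP2 + CHIR and 49.7, 52.4, 52.2, 46.0 and 53.2 CPM with dhelix FOXP2 + CHIR. CHIR, WT FOXP2 and dhelix FOXP2 libraries all lay below mock, WT FOXP2 + CHIR overlapped mock, and dhelix FOXP2 + CHIR lay between. DDIT4 fell by 0.61 ± 0.060 log2 with CHIR, by 0.71 ± 0.060 with WT FOXP2 and by 0.53 ± 0.058 with dhelix FOXP2 (adjusted p of at most 1.69e-10). An antisense gene, DDIT4-AS1, overlaps 41.2% of its exon bases.

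The secreted factors STC2 and GDF15 were near the lower end of what these libraries count, with 2 to 5 counts of STC2 per mock library. STC2, a glycoprotein hormone, measured 0.097, 0.245, 0.132, 0.179 and 0.115 CPM in mock, 1.08, 0.933, 0.896, 0.632 and 0.952 CPM with CHIR and 0.615, 0.599, 0.75, 1.33 and 1.05 CPM with WT FOXP2. It measured 0.467, 0.841, 0.521, 0.908 and 0.697 CPM with dhelix FOXP2, 1.91, 3.51, 2.00, 2.45 and 2.96 CPM with WT FOXP2 + CHIR and 1.96, 1.99, 2.17, 1.76 and 2.48 CPM with dhelix FOXP2 + CHIR. All other groups lay above mock, and both FOXP2 + CHIR groups above the 3 groups with 1 agent. STC2 rose by 2.53 ± 0.35 log2 with CHIR, 2.52 ± 0.35 with WT FOXP2 and 2.13 ± 0.35 with dhelix FOXP2 (adjusted p of at most 1.27e-06). GDF15, a stress cytokine, measured 1.36, 1.37, 1.88, 1.73 and 1.5 CPM in mock, 1.39, 3.05, 2.50, 2.27 and 2.38 CPM with CHIR and 2.03, 2.54, 2.50, 2.15 and 1.61 CPM with WT FOXP2. Its dhelix FOXP2 libraries had 2.30, 2.17, 2.604, 2.27 and 2.32 CPM, and those with CHIR 2.56, 4.74, 3.74, 3.79 and 3.65 CPM (WT FOXP2) and 3.83, 3.40, 4.28, 3.31 and 3.83 CPM (dhelix FOXP2). CHIR and WT FOXP2 overlapped mock, and the other 3 groups lay above it. GDF15 rose by 0.53 ± 0.18 log2 with CHIR (adjusted p = 0.00692), 0.43 ± 0.17 with WT FOXP2 (adjusted p = 0.0246) and 0.56 ± 0.16 with dhelix FOXP2 (adjusted p = 0.00249). The WT FOXP2 call was lost without mock replicate 1 or 2 or WT FOXP2 replicate 2 or 3, with log2 changes of 0.37 to 0.39 and adjusted p of 0.0508 to 0.0659.

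All 9 enzymes rose with CHIR (median 0.97 log2), 7 rose and 1 fell with WT FOXP2 (median 0.86), and 8 rose and 1 fell with dhelix FOXP2 (median 0.79). ASNS, which makes asparagine, measured 83.3, 81.7, 85.5, 79.3 and 83.5 CPM in mock and 262, 207, 212, 225 and 204 CPM with CHIR. It stood at 171, 186, 178, 180.4 and 172 CPM with WT FOXP2 and 174, 176, 179, 166 and 173 CPM with dhelix FOXP2. After CHIR, FOXP2 cells had 198, 216, 210.1, 218 and 216 CPM (WT FOXP2) and 230.5, 238, 225, 228 and 210.3 CPM (dhelix FOXP2). WT FOXP2 and dhelix FOXP2 overlapped each other below the 3 groups with CHIR, which overlapped among themselves. ASNS rose by 1.42 ± 0.048, 1.10 ± 0.048 and 1.07 ± 0.048 log2 with CHIR, WT FOXP2 and dhelix FOXP2 (adjusted p of at most 1.53e-21). A same-strand transcript, AC079781.5, covers 44.6% of its exon bases, and processed copies of ASNS hold counts equal to 3.34% of its own.

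CTH, which splits cystathionine to cysteine, had the largest CHIR change of the enzymes. Its level was 6.17, 5.53, 5.44, 6.26 and 5.59 CPM in mock, 47.3, 36.5, 40.7, 41.2 and 30.4 CPM with CHIR and 21.4, 26.1, 25.8, 25.2 and 24.6 CPM with WT FOXP2. The remaining groups had 36.3, 41.4, 37.6, 39.8 and 35.4 CPM (WT FOXP2 + CHIR), 15.6, 15.9, 14.5, 16.5 and 13.4 CPM (dhelix FOXP2) and 23.8, 24.0, 22.1, 22.6 and 19.9 CPM (dhelix FOXP2 + CHIR). CHIR and WT FOXP2 + CHIR overlapped at the top, WT FOXP2 overlapped dhelix FOXP2 + CHIR, and dhelix FOXP2 alone lay between those and mock. CTH rose by 2.77 ± 0.092 log2 (6.80-fold) with CHIR, 2.09 ± 0.095 with WT FOXP2 and 1.40 ± 0.097 with dhelix FOXP2 (adjusted p of at most 9.51e-16).

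With FOXP2 the serine synthesis enzymes moved apart. PHGDH, which catalyses the first step, measured 281, 284, 289, 292 and 301 CPM in mock and 279.9, 371, 364, 342 and 352 CPM with CHIR. It measured 147, 143, 152, 144 and 141 CPM with WT FOXP2 and 141, 138, 151, 139 and 138 CPM with dhelix FOXP2. With CHIR it measured 159, 177, 178, 169.8 and 172 CPM (WT FOXP2) and 168, 161, 166, 160.1 and 152 CPM (dhelix FOXP2). All 20 FOXP2 libraries lay below all mock and CHIR libraries, and CHIR replicate 1 lay just below mock while the other 4 CHIR libraries lay above it. PHGDH rose by 0.24 ± 0.047 log2 with CHIR (adjusted p = 2.6e-05) and fell by 0.99 ± 0.049 with WT FOXP2 and by 1.03 ± 0.048 with dhelix FOXP2 (adjusted p of at most 2.06e-20).

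PSAT1, the enzyme of the following step, measured 36.1, 38.3, 36.9, 37.8 and 38.9 CPM in mock and 79.3, 69.1, 66.2, 71.7 and 69.9 CPM with CHIR. FOXP2 alone gave 66.9, 71.0, 68.4, 68.5 and 65.9 CPM (WT FOXP2) and 62.9, 65.1, 65.8, 64.3 and 66.2 CPM (dhelix FOXP2). FOXP2 with CHIR gave 53.8, 61.2, 64.1, 55.9 and 58.2 CPM (WT FOXP2) and 47.5, 52.5, 51.8, 50.4 and 48.0 CPM (dhelix FOXP2). Both FOXP2 + CHIR groups lay above mock but below CHIR, and each lay below the group with the same FOXP2 form and no CHIR. PSAT1 rose by 0.92 ± 0.047, 0.86 ± 0.047 and 0.79 ± 0.046 log2 with CHIR, WT FOXP2 and dhelix FOXP2 (adjusted p of at most 6.09e-18). PSPH, the last enzyme of the pathway, rose by 0.49 ± 0.047, 0.44 ± 0.047 and 0.17 ± 0.047.

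MTHFD2, a mitochondrial one-carbon enzyme, measured 160.1, 175, 174, 167 and 165 CPM in mock and 488, 397, 386, 396 and 401 CPM with CHIR. It measured 448, 448, 432, 456 and 473 CPM with WT FOXP2 and 449, 465, 444, 449 and 449 CPM with dhelix FOXP2. In the groups with both, it measured 323, 333, 322, 317 and 311 CPM (WT FOXP2 + CHIR) and 306, 331, 335, 332 and 345 CPM (dhelix FOXP2 + CHIR). All 10 libraries with FOXP2 + CHIR lay above mock and below the 15 libraries with CHIR or FOXP2 alone. MTHFD2 rose by 1.30 ± 0.044, 1.42 ± 0.044 and 1.42 ± 0.044 log2 (adjusted p of at most 5.06e-25), with 27.2% of its exon bases shared with SLC4A5 on the other strand. SHMT2, which feeds the same mitochondrial pathway, rose by 0.97 ± 0.043, 1.31 ± 0.043 and 1.28 ± 0.043, and ALDH1L2, a mitochondrial folate enzyme, by 0.71 ± 0.077, 0.63 ± 0.077 and 0.34 ± 0.076. CBS, which makes cystathionine, rose by 1.02 ± 0.052 with CHIR and 0.14 ± 0.052 with dhelix FOXP2, and differed by -0.033 ± 0.053 with WT FOXP2 (adjusted p = 0.563).

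The 7 transporters split most. With CHIR 3 rose and 4 fell (median -0.18 log2), with WT FOXP2 5 rose and 1 fell (median 1.47), and with dhelix FOXP2 5 rose and 2 fell (median 1.03). SLC3A2, the shared heavy chain of several amino acid exchangers, measured 170.1, 165, 168, 159.8 and 162 CPM in mock and 258, 299, 302, 288 and 289.8 CPM with CHIR. WT FOXP2 libraries had 504, 541, 553, 569 and 519 CPM and, with CHIR, 721, 802, 804, 783 and 744 CPM. dhelix FOXP2 libraries had 415, 433, 432, 413 and 422 CPM and, with CHIR, 530.1, 536, 495, 501 and 509 CPM. WT FOXP2 and dhelix FOXP2 + CHIR overlapped, and the other groups were separate with WT FOXP2 + CHIR highest. SLC3A2 rose by 0.80 ± 0.039, 1.70 ± 0.040 and 1.36 ± 0.039 log2 with CHIR, WT FOXP2 and dhelix FOXP2 (adjusted p of at most 4.91e-20).

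SLC7A11, the light chain that pairs with SLC3A2 to import cystine, measured 131, 142, 124, 121 and 118 CPM in mock and 137, 102, 100.3, 108 and 104 CPM with CHIR. It measured 94.0, 102, 90.7, 105 and 111 CPM with WT FOXP2 and 73.8, 70.5, 68.9, 68.8 and 71.8 CPM with dhelix FOXP2. The FOXP2 + CHIR libraries had 83.1, 90.8, 77.3, 77.2 and 72.6 CPM (WT FOXP2) and 54.6, 59.6, 53.5, 62.8 and 55.4 CPM (dhelix FOXP2). All FOXP2 libraries lay below mock, dhelix FOXP2 + CHIR lowest, and CHIR replicate 1 lay within the mock range. SLC7A11 fell by 0.20 ± 0.069 log2 with CHIR (adjusted p = 0.00786), and by 0.33 without CHIR replicate 1 (adjusted p = 2.15e-05). It fell by 0.34 ± 0.068 with WT FOXP2 (adjusted p = 3.78e-05) and by 0.85 ± 0.069 with dhelix FOXP2 (adjusted p = 2.45e-13).

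SLC7A5, the light chain that carries leucine and other large neutral amino acids, measured 350.0, 324, 336, 335 and 341 CPM in mock and 223, 315, 342, 302 and 311 CPM with CHIR. It measured 858, 976, 1002, 997 and 928 CPM with WT FOXP2 and 765, 825, 866, 810.5 and 834 CPM with WT FOXP2 + CHIR. It measured 653, 708, 718, 669 and 698 CPM with dhelix FOXP2 and 689.9, 735, 695, 653 and 752 CPM with dhelix FOXP2 + CHIR. The CHIR libraries overlapped mock, with replicate 1 lowest, and all FOXP2 libraries lay above both. SLC7A5 rose by 1.498 ± 0.066 log2 with WT FOXP2 and 1.03 ± 0.065 with dhelix FOXP2 (adjusted p of at most 8.09e-16), and fell by 0.18 ± 0.065 with CHIR (adjusted p = 0.0166).

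SLC1A5, an importer of glutamine, measured 153, 145, 153, 149 and 155 CPM in mock, 474, 574, 657, 620.1 and 478 CPM with CHIR and 412, 441, 463, 456 and 417 CPM with WT FOXP2. Its other groups had 360.3, 374, 379, 359 and 358 CPM (dhelix FOXP2), 508, 616, 575, 569 and 589 CPM (WT FOXP2 + CHIR) and 555, 525, 512, 502 and 496 CPM (dhelix FOXP2 + CHIR). The 3 groups with CHIR overlapped at the top, and SLC1A5 rose by 1.89 ± 0.064, 1.54 ± 0.064 and 1.28 ± 0.064 log2 with CHIR, WT FOXP2 and dhelix FOXP2 (adjusted p of at most 6.18e-19). The antisense gene AC008622.2 overlaps 23.4% of its exon bases. SLC7A1, an importer of arginine and lysine, rose by 1.02 ± 0.035, 1.47 ± 0.035 and 1.18 ± 0.035.

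SLC38A2, another importer of glutamine and neutral amino acids, measured 350.5, 358, 354, 358 and 343 CPM in mock and 291, 224, 226, 248 and 232 CPM with CHIR. It measured 340.1, 334, 325, 341 and 361 CPM with WT FOXP2 and 192, 169.8, 169, 171 and 172 CPM with WT FOXP2 + CHIR. It measured 337, 303, 308, 313 and 314 CPM with dhelix FOXP2 and 139, 143, 147, 158 and 145 CPM with dhelix FOXP2 + CHIR. The 3 groups with CHIR lay below all others, lowest where FOXP2 was added. SLC38A2 fell by 0.53 ± 0.049 log2 with CHIR (adjusted p = 3.48e-12) and by 0.16 ± 0.048 with dhelix FOXP2 (adjusted p = 0.00254, lost with no filter on low counts at -0.094 and 0.0719), and differed by -0.051 ± 0.048 with WT FOXP2 (adjusted p = 0.325).

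SLC6A9, a glycine transporter, measured 16.1, 12.5, 14.3, 14.4 and 14.4 CPM in mock, 8.48, 14.9, 14.4, 9.92 and 13.3 CPM with CHIR and 15.8, 16.3, 18.7, 18.3 and 16.6 CPM with WT FOXP2. The rest had 19.1, 15.7, 19.0, 17.1 and 18.5 CPM (dhelix FOXP2), 19.2, 21.2, 24.2, 20.5 and 21.8 CPM (WT FOXP2 + CHIR) and 18.1, 19.9, 19.6, 17.6 and 20.4 CPM (dhelix FOXP2 + CHIR). Only the 2 FOXP2 + CHIR groups were separate from mock, above it. SLC6A9 rose by 0.26 ± 0.097 log2 with WT FOXP2 (adjusted p = 0.0162, lost without mock replicate 2 at 0.205 and 0.0609) and by 0.32 ± 0.094 with dhelix FOXP2 (adjusted p = 0.00258). It fell by 0.23 ± 0.10 with CHIR (adjusted p = 0.0414), a call lost without CHIR replicate 1 (-0.15, adjusted p = 0.101), without CHIR replicate 4, and without mock replicate 1, 4 or 5 (-0.20 to -0.23, adjusted p 0.0593 to 0.082). With the compared groups alone it was -0.26 (adjusted p = 0.0962, edgeR).

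Cytosolic aminoacyl-tRNA synthetases, which load amino acids onto tRNA, rose in 17 of 18 cases with CHIR, with WT FOXP2 and with dhelix FOXP2, with medians of 0.70, 0.88 and 0.76 log2. The exception was QARS, the glutaminyl enzyme. WARS, the tryptophanyl enzyme, measured 58.6, 56.8, 55.99, 54.3 and 53.5 CPM in mock and 86.2, 84.6, 77.5, 79.7 and 77.5 CPM with CHIR. It measured 127, 137, 132, 138 and 133 CPM with WT FOXP2 and 161, 168, 168, 169 and 165 CPM with WT FOXP2 + CHIR. It measured 106, 120.2, 116, 114 and 115 CPM with dhelix FOXP2 and 152, 146, 145, 150.3 and 154 CPM with dhelix FOXP2 + CHIR. No 2 groups overlapped, in the ascending order mock, CHIR, dhelix FOXP2, WT FOXP2, dhelix FOXP2 + CHIR and WT FOXP2 + CHIR. WARS rose by 0.54 ± 0.038 log2 with CHIR, 1.26 ± 0.038 with WT FOXP2 and 1.03 ± 0.037 with dhelix FOXP2 (adjusted p of at most 2.96e-15).

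GARS, the glycyl enzyme, measured 331, 343, 339.5, 331 and 336 CPM in mock and 759, 670.1, 690.2, 687 and 688 CPM with CHIR. Libraries with WT FOXP2 had 746, 777, 772, 773 and 754 CPM, or 803, 837, 861, 865 and 853 CPM with CHIR. Libraries with dhelix FOXP2 had 604, 623, 624.9, 599 and 626 CPM, or 744, 752, 748, 749 and 748 CPM with CHIR. WT FOXP2 + CHIR was highest, and dhelix FOXP2 lay between mock and the CHIR and WT FOXP2 libraries. GARS rose by 1.06 ± 0.029, 1.19 ± 0.029 and 0.87 ± 0.029 log2 with CHIR, WT FOXP2 and dhelix FOXP2 (adjusted p of at most 1.97e-25). SARS, the seryl enzyme, measured 147, 149, 149.7, 147 and 148 CPM in mock, 310.2, 293, 313, 300.3 and 293 CPM with CHIR and 259, 279.6, 266, 274 and 265 CPM with WT FOXP2. Its other groups had 250.4, 246, 259.9, 244 and 249 CPM (dhelix FOXP2), 309, 333, 336, 345 and 335 CPM (WT FOXP2 + CHIR) and 308, 309, 301, 301 and 321 CPM (dhelix FOXP2 + CHIR). All 3 groups with CHIR lay above both groups with FOXP2 alone, and SARS rose by 1.03 ± 0.031, 0.86 ± 0.031 and 0.75 ± 0.031 (adjusted p of at most 1.26e-22).

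AARS, the alanyl enzyme, measured 228, 219, 229, 227 and 225 CPM in mock, 279, 326, 314, 305 and 325 CPM with CHIR and 252, 277, 262, 279 and 272 CPM with WT FOXP2. It measured 246, 247, 260.4, 246 and 243 CPM with dhelix FOXP2, 276, 284, 289.7, 291 and 286 CPM with WT FOXP2 + CHIR and 244, 243, 245, 232 and 255 CPM with dhelix FOXP2 + CHIR. Every other group lay above mock, by less than for most synthetases: the rises were 0.46 ± 0.036, 0.25 ± 0.036 and 0.14 ± 0.035 log2 with CHIR, WT FOXP2 and dhelix FOXP2 (adjusted p of at most 0.000542). QARS measured 322, 327, 326, 338 and 345 CPM in mock, 264, 333, 328, 318 and 319 CPM with CHIR and 226, 228, 229.9, 216 and 224 CPM with WT FOXP2. It measured 248, 238, 245, 238 and 241 CPM with dhelix FOXP2, 203, 217, 217, 218 and 223 CPM with WT FOXP2 + CHIR and 262, 256, 252, 246 and 254 CPM with dhelix FOXP2 + CHIR. All 20 FOXP2 libraries lay below all mock and CHIR libraries. QARS fell by 0.56 ± 0.040 log2 with WT FOXP2 and 0.45 ± 0.040 with dhelix FOXP2 (adjusted p of at most 6.33e-13). With CHIR it differed by -0.086 ± 0.040 (adjusted p = 0.051), which passed the threshold without CHIR replicate 1 at -0.066 (adjusted p = 0.0229), and also without any 1 of the other 4 CHIR libraries or of mock replicates 1, 2 and 3 (-0.10 to -0.14). It also passed with DESeq2, DESeq2 size factors, either other filter, FOXP2 left out of the library sizes and the replicate number as a block (-0.087 to -0.14, adjusted p 0.00099 to 0.0467).

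The other 13 synthetases (MARS, NARS, EPRS, IARS, CARS, TARS, YARS, LARS, VARS, HARS, DARS, KARS and RARS) rose by 0.41 to 1.42 log2 with CHIR, 0.52 to 1.47 with WT FOXP2 and 0.48 to 1.30 with dhelix FOXP2. VARS, the valyl enzyme, was highest of them with CHIR and dhelix FOXP2 (1.42 ± 0.054 and 1.30 ± 0.054), and with WT FOXP2 VARS (1.47 ± 0.054) and YARS, the tyrosyl enzyme (1.47 ± 0.029), stood at the top. The 8 genes whose products sit in the multi-synthetase complex (MARS, EPRS, IARS, LARS, QARS, DARS, KARS and RARS), a grouping made with the values known, had medians of 0.57 log2 with CHIR, 0.77 with WT FOXP2 and 0.60 with dhelix FOXP2. The 10 others had 1.04, 1.22 and 1.04. XPOT rose by 0.68 ± 0.040, 1.18 ± 0.040 and 1.04 ± 0.040.

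**Figure D3:**
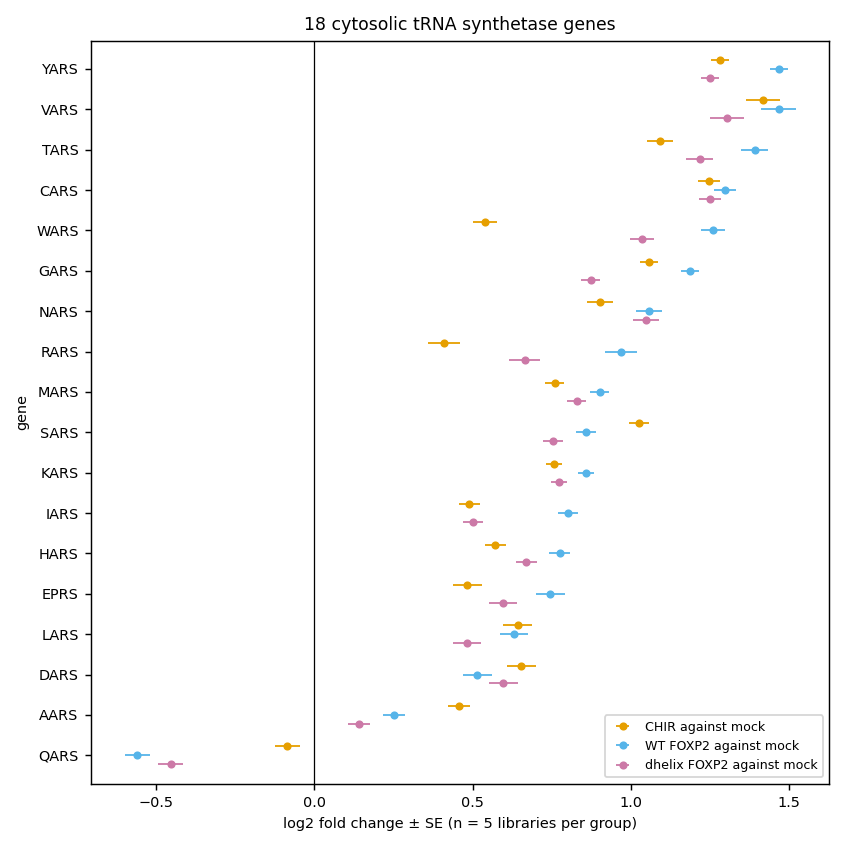
Log2 fold change against mock ± SE (5 libraries per group) of the 18 cytosolic synthetase genes, for CHIR, WT FOXP2 and dhelix FOXP2, ordered by the WT FOXP2 value. For 17 genes all 3 points lie above 0, and QARS lies below 0, at -0.56 with WT FOXP2.

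For most members the log2 change made by WT FOXP2 was lower in CHIR-treated than in untreated cells. Against CHIR alone, WT FOXP2 + CHIR raised 32 members and lowered 12 (median 0.26 log2), beside 38.2% and 40.2% of all genes. The interaction, the log2 change by FOXP2 with CHIR minus the same change without it, was negative for 39 of 48 members and positive for 2, with a median of -0.73, beside 34.9% and 30.7% of all genes and an all-gene median of -0.016. For dhelix FOXP2 it was negative for 40 and positive for 4 (median -0.72), beside 33.7% and 31.2% of all genes. dhelix FOXP2 + CHIR against CHIR raised 27 members and lowered 14 (median 0.11), beside 37.0% and 38.9% of all genes. Without CHIR replicate 1 the WT FOXP2 interaction was negative for 39 and positive for 2, and the dhelix FOXP2 interaction negative for 41 and positive for 2. The 2 interactions share the mock and CHIR libraries, and both state a departure from adding log2 changes. FOXP2 mRNA was itself more than 2-fold higher in the FOXP2 + CHIR groups than without CHIR, and the part of that in the interactions was not tested.

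The interaction with WT FOXP2 was most negative for CTH, at -2.14 ± 0.12 log2 (adjusted p = 9.87e-18): WT FOXP2 raised CTH by 2.09 without CHIR, and with CHIR the difference was -0.045 ± 0.074 (adjusted p = 0.58), and 0.045 without the 3 libraries that stood apart (adjusted p = 0.545). CHAC1 followed at -1.81 ± 0.13 (adjusted p = 4.09e-14), with a rise of 0.69 ± 0.081 in CHIR-treated cells. MTHFD2 stood at -1.79 ± 0.061 (adjusted p = 3.74e-24): WT FOXP2 lowered it by 0.36 ± 0.043 in CHIR-treated cells and raised it without CHIR. SLC1A5 (-1.51 ± 0.088) and ASNS (-1.17 ± 0.067) differed by 0.026 ± 0.061 and -0.071 ± 0.046 from CHIR alone, neither past the threshold, and the ASNS value was 0.015 without the 3 libraries that stood apart. PSAT1 fell by 0.28 ± 0.045 against CHIR, with an interaction of -1.14 ± 0.065. Several regulators still rose: in CHIR-treated cells PPP1R15A rose by 1.76 ± 0.051, DDIT3 by 1.28 ± 0.046, TRIB3 by 1.28 ± 0.066 and ATF4 by 0.25 ± 0.045, with interactions of -1.31 ± 0.074, -1.41 ± 0.069, -0.90 ± 0.098 and -0.88 ± 0.064. SESN2 rose by 0.72 ± 0.063 with an interaction of -1.09 ± 0.094. All 17 synthetases other than QARS had a negative interaction past the threshold with WT FOXP2 (median over the 18, -0.73), from -0.22 in WARS to -1.19 in VARS.

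The largest positive interaction was that of DDIT4, 1.43 ± 0.085 with WT FOXP2 (adjusted p = 4.11e-17) and 0.96 ± 0.084 with dhelix FOXP2 (adjusted p = 2.01e-12). WT FOXP2 lowered it without CHIR and raised it by 0.71 ± 0.060 with CHIR. SLC6A9 was the other positive one with WT FOXP2, at 0.55 ± 0.14 (adjusted p = 0.000786). QARS and PHGDH had WT FOXP2 interactions of 0.024 ± 0.057 and -0.0044 ± 0.068, both short of the threshold (adjusted p = 0.727 and 0.962), with falls of 0.53 ± 0.040 and 1.00 ± 0.048 in CHIR-treated cells. SLC7A5 had -0.040 ± 0.092 (adjusted p = 0.723) and rose by 1.46 ± 0.066 with WT FOXP2 in CHIR-treated cells. NUPR1 fell by 1.06 ± 0.070 there, and by 1.64 ± 0.074 with dhelix FOXP2.

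**Figure D4:**
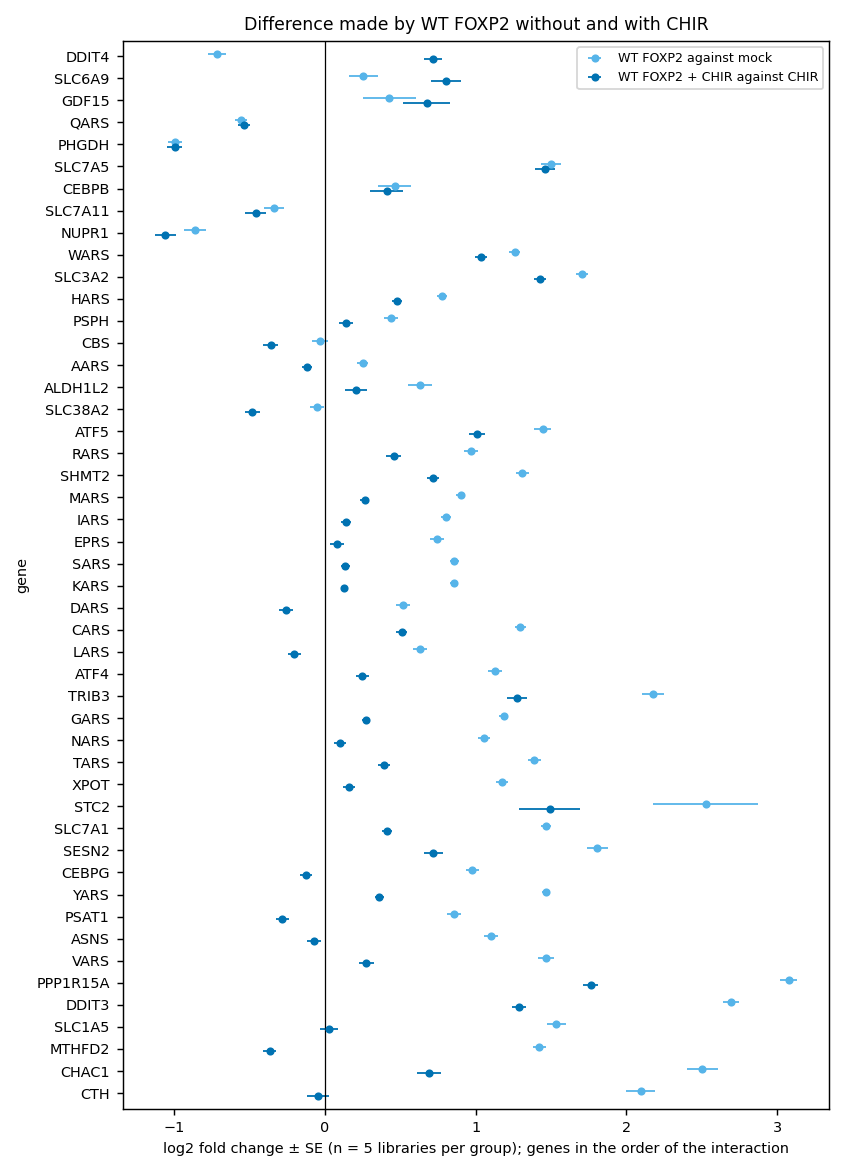
Log2 fold change ± SE (5 libraries per group) of the 48 members made by WT FOXP2 without CHIR (light points, against mock) and with CHIR (dark points, against CHIR alone), in the order of the interaction. The dark point lies left of the light one for most genes, by 2.14 in CTH at the bottom, and right of it for DDIT4 at the top.

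By the same interactions, the log2 change made by CHIR was for most members lower in cells with FOXP2 than in mock cells. Against WT FOXP2 alone, WT FOXP2 + CHIR raised 32 members and lowered 10 (median 0.21 log2), beside 34.8% and 30.2% of all genes. For dhelix FOXP2 the counts were 29 and 8 (median 0.16), beside 34.1% and 29.1%. These small changes depend on the filter. With no filter on low counts 15.2% of all genes were higher and 16.7% lower. ATF5 went from 0.128 to 0.038 (adjusted p = 0.639, edgeR) and PHGDH from 0.191 to 0.102 (adjusted p = 0.0734). AARS went from -0.028 to -0.118 (adjusted p = 0.0267). All 5 effectors rose with CHIR in both FOXP2 backgrounds: STC2 by 1.49 ± 0.20 and 1.59 ± 0.21, DDIT4 by 0.81 ± 0.060 and 0.35 ± 0.059, CHAC1 by 0.70 ± 0.080 and 0.54 ± 0.081, SESN2 by 0.64 ± 0.063 and 0.73 ± 0.064, and GDF15 by 0.78 ± 0.15 and 0.67 ± 0.14 in WT FOXP2 and dhelix FOXP2 cells. SLC38A2 fell most, by 0.96 ± 0.049 and 1.10 ± 0.050. MTHFD2 fell by 0.49 ± 0.043 and 0.45 ± 0.043, and PSAT1 by 0.22 ± 0.045 and 0.37 ± 0.045, while CTH rose by 0.63 ± 0.076 and 0.56 ± 0.082. CBS rose by 0.69 ± 0.052 and 0.52 ± 0.051, and XPOT fell by 0.34 ± 0.040 and 0.25 ± 0.040. ATF4 rose by 0.15 ± 0.045 with WT FOXP2 (adjusted p = 0.00311) and differed by 0.030 ± 0.045 with dhelix FOXP2 (adjusted p = 0.577, or -0.022 and 0.541 without the 3 libraries that stood apart).

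Where members differed between the 2 FOXP2 forms, dhelix FOXP2 gave mostly the lower level. Without CHIR 27 of 48 were lower with dhelix FOXP2 than with WT FOXP2 and 3 higher (median -0.14 log2), beside 18.7% and 16.9% of all genes. With no filter on low counts 17 were lower, beside 5.69% of all genes in that fit. CEBPG, TRIB3, SARS, AARS, EPRS, LARS, VARS, HARS, KARS and XPOT were then no longer called (adjusted p 0.0505 to 0.604, edgeR). With CHIR 28 were lower and 1 higher (median -0.16), beside 13.9% and 16.6%. These 2 comparisons share no library, and 18 members were lower in both, which is 66.7% of the first list and 64.3% of the second, beside 41.2% and 55.4% of the 2 corresponding lists of all genes: DDIT3, CEBPG, TRIB3, PPP1R15A, SESN2, PSPH, ALDH1L2, CTH, SLC7A11, SLC7A5, SLC3A2, SLC7A1, WARS, GARS, SARS, AARS, TARS and YARS. DDIT4, CBS and QARS were higher with dhelix FOXP2 without CHIR, and QARS also with it. Without CHIR the call was lost for AARS without WT FOXP2 replicate 2 or dhelix FOXP2 replicate 5 (adjusted p = 0.0599 and 0.0542, edgeR) and for SARS without WT FOXP2 replicate 2 or dhelix FOXP2 replicate 4 (adjusted p = 0.0637 and 0.0507). FOXP2 mRNA was lower in the dhelix FOXP2 than in the WT FOXP2 group means, 5319 against 7076 CPM without CHIR and 13480 against 15300 CPM with it, and its part in the differences was not tested.

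The differences were largest for DDIT3, which was lower by 0.88 ± 0.045 log2 without CHIR (adjusted p = 1.75e-17) and 0.96 ± 0.045 with CHIR (adjusted p = 6e-18), with no library of one form within the range of the other. PPP1R15A was lower by 0.71 ± 0.049 and 0.77 ± 0.049, and CTH by 0.70 ± 0.080 and 0.76 ± 0.077. SLC7A11 was lower by 0.51 ± 0.069 and 0.49 ± 0.072, SESN2 by 0.46 ± 0.064 and 0.37 ± 0.062, SLC7A5 by 0.47 ± 0.064 and 0.22 ± 0.064, and SLC3A2 by 0.34 ± 0.038 and 0.58 ± 0.038. ATF4 itself differed by -0.080 ± 0.045 without CHIR (adjusted p = 0.166, or -0.068 and 0.0339 with the compared groups alone) and was lower by 0.20 ± 0.045 with it (adjusted p = 0.000548). TRIB3 was lower by 0.16 ± 0.063 without CHIR (adjusted p = 0.0415), a call lost without WT FOXP2 replicate 2, 3 or 4 or dhelix FOXP2 replicate 1, 2, 4 or 5 (adjusted p 0.0732 to 0.13), and also when FOXP2 was left out of the library sizes, when genes averaging under 1 CPM were dropped, or when all genes were kept (-0.12 to -0.16, adjusted p 0.0508 to 0.097). With CHIR it was lower by 0.23 ± 0.062 with CHIR.

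Synthetases had small median differences between the forms, mostly toward lower levels with dhelix FOXP2. Without CHIR 13 were lower and 1 higher (median -0.13 log2), beside 18.7% and 16.9% of all genes. With CHIR 8 were lower and 1 higher (median -0.065), beside 13.9% and 16.6%. Without CHIR, group means with WT FOXP2 and dhelix FOXP2 were 158.2 and 128.1 CPM for RARS, and 538.2 and 437.1 CPM for IARS. GARS was lower by 0.31 ± 0.029 and 0.17 ± 0.029, and QARS higher by 0.10 ± 0.040 (adjusted p = 0.039, lost without WT FOXP2 replicate 4 or dhelix FOXP2 replicate 1 at 0.107 and 0.089) and 0.24 ± 0.040 (adjusted p = 1.64e-05). MTHFD2 and PHGDH showed no difference past the threshold between the forms, at -0.0005 ± 0.043 and -0.040 ± 0.049 without CHIR and 0.038 ± 0.043 and -0.083 ± 0.049 with it. PHGDH with CHIR did pass when only the compared groups were fitted and without the 3 libraries that stood apart (-0.092 and -0.096, adjusted p = 0.0234 and 0.0206, edgeR). Whether the effect of the helix deletion itself changed with CHIR was tested as another interaction, which was positive for 5 members and negative for 4 (median -0.020), beside 8.93% and 5.29% of all genes. These 9 calls became 20 when only the compared groups were fitted, beside 24.3% of all genes in that fit, and 19 without the 3 libraries that stood apart, beside 20.3%. The negative ones were NUPR1 (-0.60 ± 0.11), DDIT4 (-0.47 ± 0.084), ATF5 (-0.26 ± 0.071) and SLC3A2 (-0.24 ± 0.054). The positive ones were RARS (0.28 ± 0.068), IARS (0.23 ± 0.044), EPRS (0.18 ± 0.064), SLC7A1 (0.15 ± 0.048) and GARS (0.14 ± 0.041), and GARS did not pass without 1 of 10 libraries taken singly, WT FOXP2 replicates 1, 2, 3 and 5, dhelix FOXP2 replicates 2, 3, 4 and 5, WT FOXP2 + CHIR replicate 2 and dhelix FOXP2 + CHIR replicate 2 (0.11 to 0.12, adjusted p 0.0678 to 0.126). With no filter on low counts GARS, SLC7A1, EPRS and IARS did not pass (0.078 to 0.16, adjusted p 0.0949 to 0.622), and EPRS also not with DESeq2 (0.18, adjusted p = 0.0697) or its size factors, a mean of at least 1 CPM or FOXP2 left out of the library sizes.

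**Figure D5:**
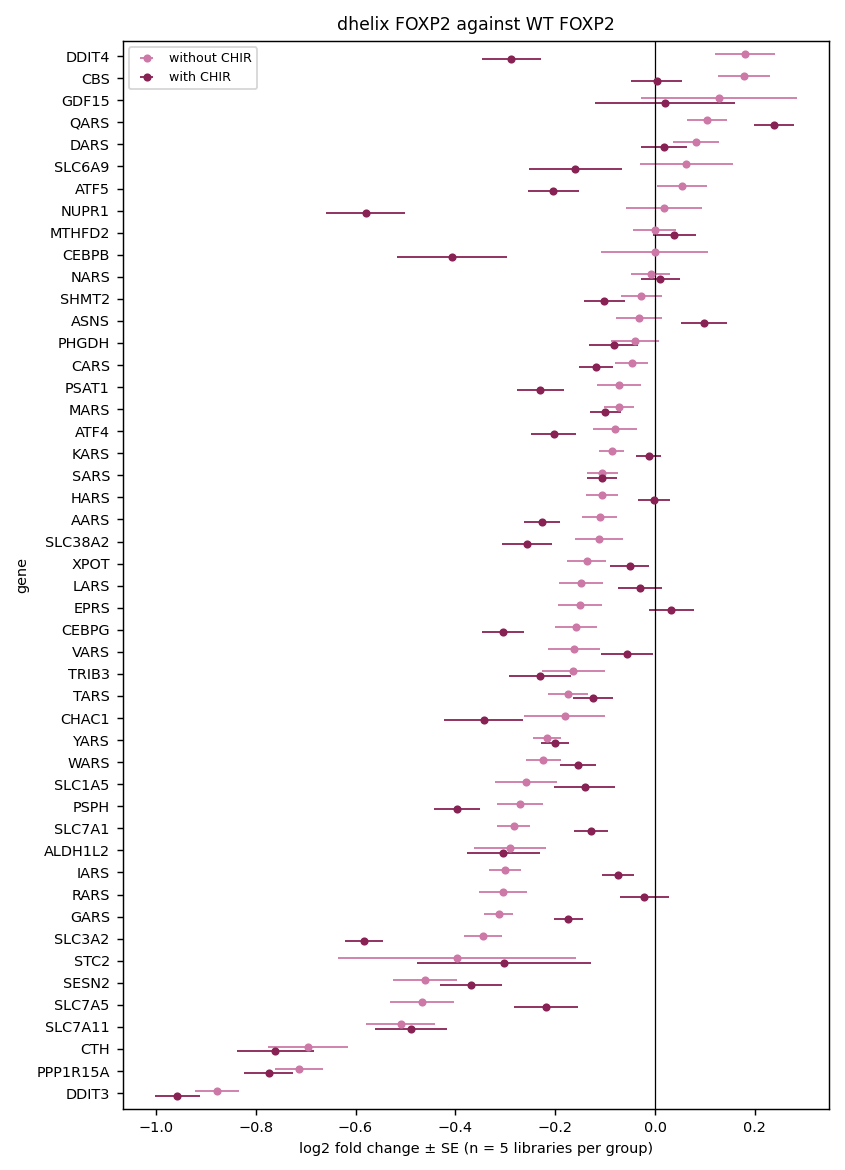
Log2 fold change ± SE (5 libraries per group) of dhelix FOXP2 against WT FOXP2 for the 48 members, without CHIR (light points) and with CHIR (dark points), in the order of the value without CHIR. Most points lie left of 0, and DDIT3, at the bottom, stands at -0.88 without and -0.96 with CHIR.

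Other genes of the pathway, from lists drawn up with earlier results of these data known, were counted in the same fit. The counts below stand beside 38.8% of all genes higher and 35.3% lower with CHIR. The all-gene shares were 39.9% and 41.6% with WT FOXP2, and 39.6% and 40.9% with dhelix FOXP2. Of 14 further described ATF4 targets there were 14 higher and 0 lower with CHIR, 12 higher and 1 lower with WT FOXP2 and 11 higher and 0 lower with dhelix FOXP2, with medians of 0.84, 0.62 and 0.61 log2. FGF21, a secreted metabolic hormone, rose by 1.39 ± 0.265, 2.91 ± 0.207 and 2.25 ± 0.219 log2 (SE, n = 5 libraries per group) with CHIR, WT FOXP2 and dhelix FOXP2, from a mock mean of 0.329 CPM. ATF3, a stress transcription factor, rose by 2.12 ± 0.052, 2.66 ± 0.050 and 2.12 ± 0.050, EIF4EBP1, a repressor of cap-dependent translation, by 0.77 ± 0.081, 1.38 ± 0.079 and 1.44 ± 0.079, and VEGFA, the angiogenic growth factor, by 1.28 ± 0.042, 0.78 ± 0.042 and 0.76 ± 0.042. Of 15 genes for eIF2, its exchange factor eIF2B, its kinases and their cofactors there were 12 higher and 2 lower with CHIR, 11 higher and 4 lower with WT FOXP2 and 11 higher and 4 lower with dhelix FOXP2. EIF2B3, EIF2S1, EIF2S2 and EIF2B5 had the largest called changes, with rises of 1.34 ± 0.043, 1.21 ± 0.052, 1.03 ± 0.053 and 0.85 ± 0.032 with WT FOXP2. The kinases, named after their values were seen, did not rise together. With CHIR EIF2AK3 (PERK) rose by 0.43 ± 0.058 and EIF2AK4 (GCN2) fell by 0.14 ± 0.031, and with WT FOXP2 EIF2AK3 fell by 0.32 ± 0.060 and EIF2AK4 rose by 0.35 ± 0.031. EIF2AK2 (PKR) fell by 0.40 ± 0.055 and 0.39 ± 0.054, while EIF2AK1 (HRI) fell by 0.29 ± 0.026 with WT FOXP2 and differed by -0.04 ± 0.026 with CHIR, short of the threshold. Of 17 mitochondrial synthetases there were 13 higher and 2 lower with CHIR, 11 higher and 2 lower with WT FOXP2 and 12 higher and 3 lower with dhelix FOXP2, with medians of 0.24, 0.29 and 0.36 log2, beside 0.70, 0.88 and 0.76 for the cytosolic ones. MARS2 rose by 1.57 ± 0.064, 2.12 ± 0.061 and 1.91 ± 0.061, and YARS2 by 0.57 ± 0.043, 1.01 ± 0.042 and 0.82 ± 0.042. All 5 remaining cytosolic subunits and scaffolds (FARSA, FARSB, AIMP1, AIMP2 and EEF1E1) rose in each comparison with mock, with medians of 0.97, 1.16 and 1.05.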

How the data were processed

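Poly(A) RNA was sequenced in 30 libraries, 5 in each of 6 groups, and the deposited table holds raw counts per gene made by the authors. The submitters' processing notes list the aligner STAR 2.6.1a, featureCounts from Subread, DESeq2, and the human build hg19. Which annotation was used, how strand was handled and what was counted (reads or fragments) is not given in these sources. Gene counts were fitted in 1 model over all libraries, with a mean per group, by edgeR 4.0.16 (R 4.3.3) with TMM scaling, its expression filter and the robust quasi-likelihood test, and p-values were adjusted by Benjamini-Hochberg over 18485 genes. Standard errors are the log2 fold change divided by the square root of F. The code was tested on simulated counts for WT FOXP2 against mock in which few genes changed, as many up as down. That test cannot show how the scaling behaves where most genes differ, as here.

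The members and the gene lists were chosen with earlier results of these data known. Genes given library by library were a set of regulators, targets and synthetases, plus the 2 other members with the largest called change in each direction in the comparisons with mock and in WT FOXP2 + CHIR against CHIR. Replicate numbers were not used to pair libraries in the main fit, since the labels do not say that a number marks a shared day. Gene overlaps came from GENCODE on GRCh38 and were used for names and neighbours only, and promoter sequences came from RefSeq on GRCh38.p14. Alternatives were DESeq2 1.42.0 and its size factors, other filters, FOXP2 left out of library sizes, a test against a 2-fold change, the compared groups alone, a replicate block, the 3 libraries that stood apart left out, and each library left out in turn.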

Additional observations from a re-analysis of the deposited data

Results flagged for a closer look

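Of 168 sets of 5 libraries (28 members in 6 groups), 12 held a library whose gap to the nearest other was large for the range of its group, and chance gives about 1 in 20. CHIR replicate 1 was such a library 5 times. It was low for ATF4 at 512 CPM (626 to 664 in the other 4) and for QARS at 264 CPM (318 to 333). It was high for MTHFD2 at 488 CPM (386 to 401), SLC7A11 at 137 CPM (100.3 to 108) and GARS at 759 CPM (670.1 to 690.2).

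In dhelix FOXP2, replicate 3 was high for PHGDH at 151 CPM and AARS at 260.4 CPM, and replicate 2 was high for MTHFD2 at 465 CPM and low for NUPR1 at 11.1 CPM. Replicate 2 of dhelix FOXP2 + CHIR was high for SESN2 at 119 CPM. In WT FOXP2 + CHIR, replicate 1 was high for SLC38A2 at 192 CPM and replicate 3 for NUPR1 at 19.1 CPM.

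For 50 of 84 interactions (28 members, 3 each, 59.5%) the effect of one agent differed between the states of the other by edgeR's quasi-likelihood test, beside 48.2% over all genes and the same 3 interactions. With WT FOXP2 the log2 interactions of the regulators were -0.88 for ATF4, -1.41 for DDIT3, -0.90 for TRIB3, -1.31 for PPP1R15A and -0.44 for ATF5. Those of the effectors were -1.81 for CHAC1, -1.09 for SESN2, 1.43 for DDIT4 and -1.03 for STC2. The enzymes had -1.17 for ASNS, -1.14 for PSAT1, -1.79 for MTHFD2 and -2.14 for CTH, and the transporters -0.28 for SLC3A2, -1.51 for SLC1A5, -0.43 for SLC38A2 and 0.55 for SLC6A9. The synthetases had -0.22 for WARS, -0.91 for GARS, -0.37 for AARS and -0.72 for SARS. The STC2 call was lost without CHIR replicate 1, WT FOXP2 + CHIR replicate 1 or 3, WT FOXP2 replicate 4 or 5, or mock replicate 1, 3 or 5 (-0.83 to -0.97, adjusted p 0.0543 to 0.085).

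With dhelix FOXP2 the regulators had -1.0 for ATF4, -1.49 for DDIT3, -0.97 for TRIB3, -1.38 for PPP1R15A, -0.46 for CEBPB, -0.79 for NUPR1 and -0.70 for ATF5. The effectors had -1.97 for CHAC1, -1.0 for SESN2 and 0.96 for DDIT4, and the enzymes -1.04 for ASNS, -1.30 for PSAT1, -1.75 for MTHFD2 and -2.20 for CTH. The transporters had -0.52 for SLC3A2, -1.39 for SLC1A5, -0.58 for SLC38A2, 0.33 for SLC6A9 and 0.21 for SLC7A5. The synthetases had -0.15 for WARS, -0.77 for GARS, -0.48 for AARS, -0.73 for SARS and 0.16 for QARS. Without CHIR replicate 1 the values for SLC6A9, SLC7A5 and QARS were 0.21 (adjusted p = 0.0923), 0.12 (adjusted p = 0.0966) and 0.10 (adjusted p = 0.0155). When all genes were kept whatever their counts, QARS had 0.087 (adjusted p = 0.347) and SLC7A5 0.137 (adjusted p = 0.0663), and with a mean of at least 1 CPM WARS had -0.105 (adjusted p = 0.0756). With the compared groups alone SLC6A9 and SLC7A5 had adjusted p of 0.0518 and 0.0511. The SLC6A9 call was also lost without CHIR replicate 4, dhelix FOXP2 + CHIR replicate 2, 3 or 5, dhelix FOXP2 replicate 2 or 4, or mock replicate 1, 3, 4 or 5 (0.28 to 0.33, adjusted p 0.0505 to 0.0749). The SLC7A5 call was also lost without dhelix FOXP2 + CHIR replicate 1, 2, 3 or 5, dhelix FOXP2 replicate 1, 4 or 5, or mock replicate 3, 4 or 5 (0.18 to 0.21, adjusted p 0.0509 to 0.0972).

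The helix deletion and CHIR had interactions of -0.47 for DDIT4, -0.24 for SLC3A2, 0.14 for GARS, -0.60 for NUPR1 and -0.26 for ATF5. GARS did not pass with no filter on low counts (0.078, adjusted p = 0.622) or a mean of at least 1 CPM (0.115, adjusted p = 0.0536).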

How the results depend on the processing

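No member result past the threshold changed sign under any alternative run, and of 11808 values 182 changed sign short of the threshold in both fits. Over the members' results in all alternatives, 11452 of 11808 kept their side of the threshold, 152 passed it anew and 204 no longer passed. Tested against a 2-fold change (glmTreat), the numbers of members called were 15 for CHIR, 23 for WT FOXP2 and 17 for dhelix FOXP2 against mock, all higher and 0 lower, beside 6.52%, 10.5% and 9.65% of all genes higher and 8.77%, 14.8% and 12.7% lower by the same test. They were 6 (6 higher, 0 lower) for WT FOXP2 + CHIR and 2 (1 higher, 1 lower) for dhelix FOXP2 + CHIR against CHIR (all genes 9.99% and 8.02%, 9.21% and 5.33%), and 1 higher and 0 lower for CHIR added to either FOXP2 form (all genes 4.98% and 1.75% with WT, 4.67% and 1.49% with dhelix). They were 0 for the helix deletion with and without CHIR (0.124% and 0.406% of all genes), 11 for the WT FOXP2 interaction (1 positive, 10 negative, beside 8.69% and 3.85% of all genes), 9 for the dhelix FOXP2 interaction (0 positive, 9 negative, beside 8.25% and 3.69%) and 0 for the helix interaction, with 0 of all genes. With no filter on low counts, 17 members were lower with dhelix than WT FOXP2 in place of 27, beside 5.69% of all genes in place of 18.7%. In the same fit 2 dhelix FOXP2 interactions were positive in place of 4, beside 14.6% of all genes. The helix interaction had 2 positive and 8 negative there, beside 1.65% and 3.78%. With a mean of at least 1 CPM the helix interaction had 3 and 9, beside 8.89% and 8.37% of all genes. With the compared groups alone it had 20 calls (9 positive, 11 negative, beside 12.8% and 11.5% of all genes), and without the 3 libraries that stood apart 19 (12 negative, beside 10.1%). In both of these fits 2 members were higher with dhelix FOXP2 + CHIR than WT FOXP2 + CHIR and 2 dhelix FOXP2 interactions were positive. The shares of all genes were 19.9% and 30.7% with the compared groups alone, and 17.5% and 31.1% without the 3 libraries. The causes were not tested. Leaving out 1 library at a time gave 2 to 4 positive dhelix FOXP2 interactions, 2 to 5 positive helix interactions and 1 to 2 members higher with dhelix FOXP2 + CHIR than WT FOXP2 + CHIR. The longer promoter core was held by 2 members in place of 13, since each of its matches contains the shorter one.

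Same-numbered libraries of different groups deviated together little: the correlation over 75 pairs had a median of 0.014 (-0.178 to 0.268). It was over 0.1 in 9 pairs. Of 30 libraries 10 correlated best with their own number, more than an even spread over the 5 numbers would give. Whether a number marks a shared day is not given in the labels, and a weak correlation cannot settle it. With the replicate number as a block, 569 single-gene calls stayed on their side of the threshold, 7 passed anew and 0 were lost. Low counts limit STC2 and GDF15. The p-values measure only the spread between libraries within the groups, estimated jointly from all 30 libraries.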
